A study of Mus musculus with 8 samples.

Results

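H19 and 9 further genes known from imprinting (Igf2, Igf2r, Meg3, Dlk1, Peg3, Cdkn1c, Grb10, Plagl1 and Mest) were followed in pancreatic stellate cells (PSCs), the fibroblast-like cells that reside in the pancreas. The 10 genes were chosen by symbol, as members of a network of growth-related imprinted genes, with their levels in these libraries already known. Of the 10, 9 are among the 12160 genes of the count table, all but Peg3, and each of the 9 had at least 10 counts in each comparison. H19 differed more than 20-fold between the PSCs given medium from Brca2-silenced and from control cancer organoids, while the other members were mostly lower with either medium than with control medium.

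The PSCs were an immortalized mouse line grown in growth factor reduced Matrigel. The labels give 20000 cells seeded, and the study's methods state another number. After 4 days in growth medium, the domes received for a further 4 days the medium of KPC-shBrca2 organoids (shBrca2-CM, n = 3), that of KPC-shControl organoids (shControl-CM, n = 3) or control medium (n = 2). KPC organoids are 3D cultures of cancer cells from the mouse pancreas, and the shRNA against Brca2 was in the organoids and not in the PSCs. The control is named DMEM in the titles and medium conditioned by PSCs themselves in the recorded treatment, and it is called control medium here. All 8 libraries came from a single line, so the spread between them is that between domes. Brca2 itself was at 22.3 to 43.5 CPM (counts per 1e6, with library sizes scaled by edgeR's TMM factors over all 8 libraries) in the PSCs of all groups, which does not test the silencing.

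Imprinted genes are read mainly from the copy inherited from 1 parent, as set by DNA methylation laid down in the germ line. H19 is a noncoding RNA of the maternal copy and Igf2, its neighbour, a growth factor of the paternal copy. The pair share enhancers, and the factor CTCF, bound to an unmethylated control region between them, keeps the enhancers from Igf2. Meg3 and Dlk1 form a like pair of a maternal noncoding RNA and a paternal protein gene. Several members restrain growth (Cdkn1c, Grb10, Igf2r) and others favour it (Igf2, Mest), and most are abundant in the embryo and low in adult tissue. The counts do not separate the parental copies, so imprinting itself was not measured.

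In the genome build GRCm38.p6, H19 lies on chromosome 7 from 142575530 to 142578146 and Igf2 from 142650768 to 142666816, with 72.6 kb between them. Cdkn1c follows 792 kb beyond Igf2, at 143458339 to 143461059. Dlk1 (109452485 to 109463336) and Meg3 (109540996 to 109571729) lie 77.7 kb apart on chromosome 12. Mest lies on chromosome 6 (30733506 to 30748466), Plagl1 on chromosome 10 (13090832 to 13131694), Grb10 on chromosome 11 (11930499 to 12037428) and Igf2r on chromosome 17 (12682406 to 12769706).

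H19 is also the precursor of miR-675, and 3 other members host miRNAs within their gene bounds. Their RefSeq mature sequences are shown because a change of the host RNA is a change of the transcript they can be cut from. The capitals mark the seed, bases 2 to 8 from the 5′ end, by which a miRNA pairs with its targets.
mmu-miR-675-5p: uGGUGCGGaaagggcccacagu
mmu-miR-675-3p: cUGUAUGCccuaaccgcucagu
mmu-miR-335-5p: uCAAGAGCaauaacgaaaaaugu
mmu-miR-335-3p: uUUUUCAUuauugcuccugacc
mmu-miR-770-5p: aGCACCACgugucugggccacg
mmu-miR-770-3p: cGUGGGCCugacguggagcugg
mmu-miR-1906: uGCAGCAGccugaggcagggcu
mmu-miR-483-5p: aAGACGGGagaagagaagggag
mmu-miR-483-3p: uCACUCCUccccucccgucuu
The pair of miR-675 lies in H19, that of miR-335 in Mest and that of miR-483 in Igf2, while miR-770 and miR-1906 lie in Meg3. No seed is shared among these 9 sequences. The libraries hold the ends of polyadenylated RNA, and mature miRNAs were not measured.

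H19 was at 437, 523 and 487 CPM with shBrca2-CM, at 15.2, 28.1 and 27.3 CPM with shControl-CM and at 186 and 266 CPM in control medium. These levels rest on 301 to 549, 24 to 40, and 1064 and 1241 counts. The groups did not overlap, with control medium between the conditioned media. The mean was 482 ± 43.5 CPM (SD, n = 3) with shBrca2-CM and 23.5 ± 7.22 CPM (SD, n = 3) with shControl-CM. The log2 fold change was 4.41 (SE 0.20, edgeR) between the conditioned media, a 21.2-fold difference. Against control medium it was -3.29 (SE 0.26) with shControl-CM, 9.79-fold lower, and 1.10 (SE 0.15) with shBrca2-CM, 2.15-fold higher. Only 4 of 11035 genes had a larger positive log2 fold change between the conditioned media. H19 was chosen on these values, so they are a description, and neither they nor those of the other members carry a p-value. A gene was called, or met the thresholds, where edgeR's adjusted p was below 0.1, its log2 fold change exceeded 0.5 in size and its normalized count averaged above 5. H19 met them in all 3 comparisons.

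**Figure D1:**
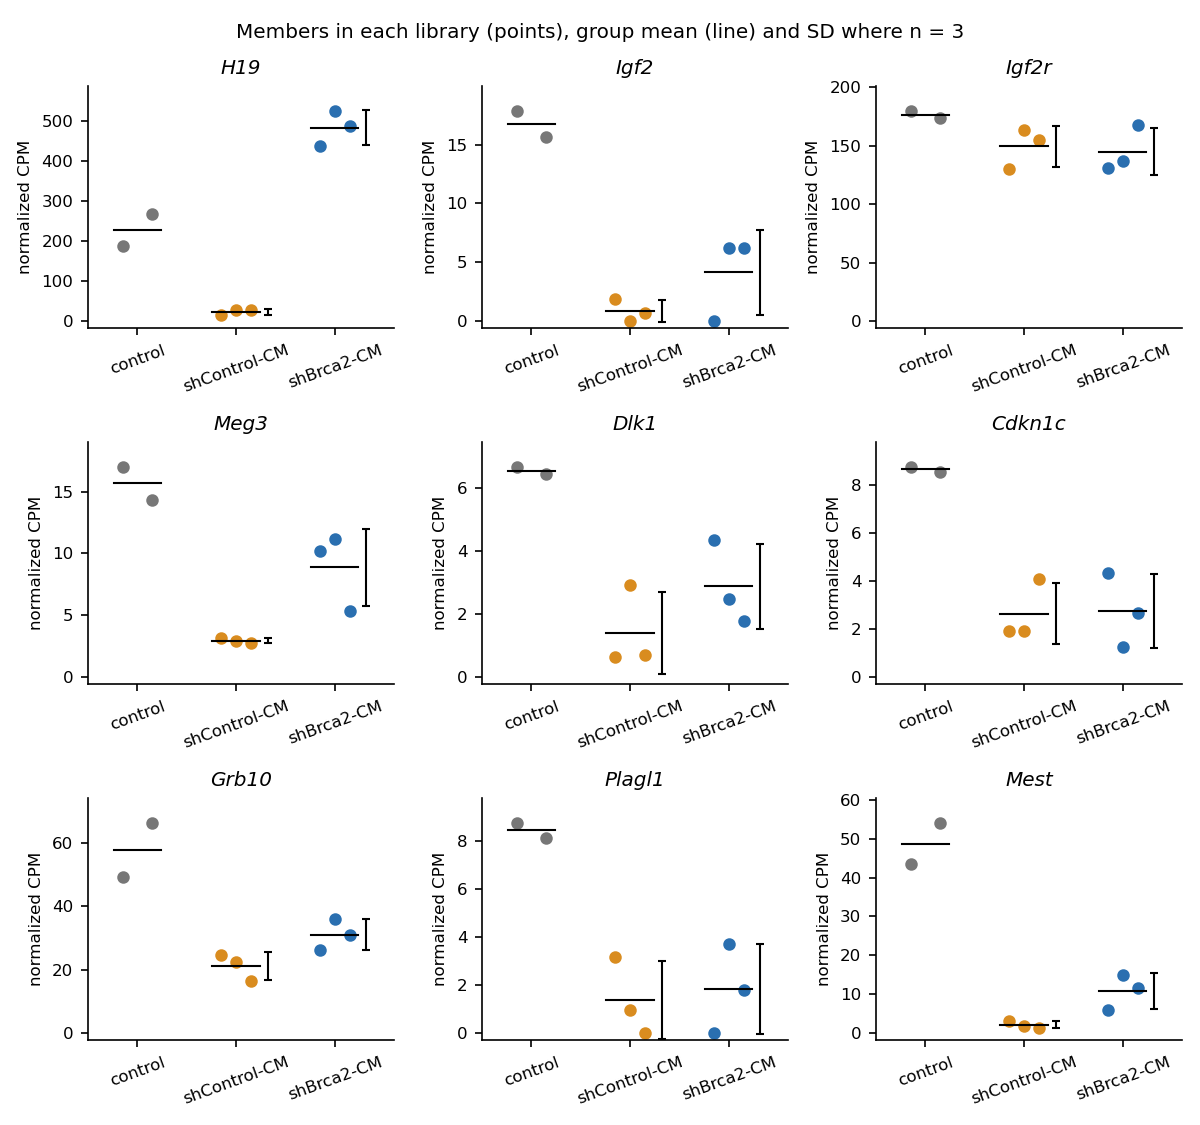
Normalized CPM (y axis) of the 9 members in each library of the 3 groups; points are libraries, lines are group means and bars are the SD where n = 3. H19 alone has its highest points with shBrca2-CM (437 to 523 CPM), and the other members have their highest points in control medium.

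Igf2, the growth factor gene next to H19, did not follow it above control medium. It had 0, 5 and 7 counts with shBrca2-CM (0, 6.20 and 6.21 CPM), 3, 0 and 1 with shControl-CM (1.90, 0 and 0.683 CPM), and 102 and 73 in control medium (17.8 and 15.6 CPM). The conditioned media overlapped at 0, and both lay below control medium. With at most 3 counts in any shControl-CM library, the summed counts per library size were 17.2 times lower than in control medium (95% exact interval 6.59 to 63.7). They were 3.68 times lower with shBrca2-CM (2.06 to 7.27) and, between the conditioned media, 4.66 times higher with shBrca2-CM (1.41 to 19.8). Of the 4 counts with shControl-CM 3 came from replicate 1, and without it the fitted log2 fold change between the conditioned media went from 2.10 to 3.16. These intervals cover counting error only and leave out the spread between domes. H19 and Igf2 thus lay on opposite sides of control medium with shBrca2-CM and on the same side with shControl-CM.

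Mest, which encodes a hydrolase-like protein of the mesoderm, had the largest difference between the conditioned media after H19 among members with over 3 counts in a library of each group. It was at 5.80, 14.9 and 11.5 CPM with shBrca2-CM (4, 12 and 13 counts) and at 3.17, 1.94 and 1.37 CPM with shControl-CM (5, 2 and 2 counts). In control medium it was at 43.4 and 54.0 CPM. The 3 groups did not overlap, and the conditioned media were both below control medium. The log2 fold change was 2.28 (SE 0.55) between the conditioned media, -4.44 (SE 0.37) with shControl-CM against control medium and -2.13 (SE 0.27) with shBrca2-CM against control medium. Mest met the thresholds between the conditioned media under 7 of 16 other settings. Among the others, it missed them with DESeq2 and without shBrca2-CM replicate 2, shBrca2-CM replicate 3 or shControl-CM replicate 2.

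Meg3, the maternal noncoding RNA, was at 10.2, 11.2 and 5.32 CPM with shBrca2-CM, at 3.17, 2.91 and 2.73 CPM with shControl-CM and at 17.0 and 14.4 CPM in control medium. The 3 groups did not overlap. Between the conditioned media Meg3 had a log2 fold change of 1.54 (SE 0.51), which missed the thresholds, from 6 to 9 and 3 to 5 counts a library. It was 2.56 in libraries thinned to the smallest total, where it missed them too. Against control medium it was -2.40 (SE 0.37) with shControl-CM and -0.89 (SE 0.35) with shBrca2-CM. The latter missed the thresholds under 7 of 15 other settings, DESeq2 and the fits without shBrca2-CM replicate 3 (-0.55) or control replicate 1 among them. Rtl1 overlaps Meg3 on the chromosome, and since counting by strand is not stated, reads of the overlap cannot be told apart. Dlk1, a Notch-like membrane protein of the paternal copy, had 1 to 3 counts in every conditioned medium library, so no fold is given between these media. It had 38 and 30 counts in control medium (6.65 and 6.43 CPM), 5.34 times more per library size than with shControl-CM (95% exact interval 2.18 to 17.0) and 2.45 times more than with shBrca2-CM (1.13 to 6.33). The thresholds against control medium were missed without control replicate 1 with either medium. With shBrca2-CM Dlk1 missed them under 9 of 15 other settings, DESeq2 and the fits without shBrca2-CM replicate 2 or 3 among them.

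Among the members that restrain growth, Grb10, an adaptor that dampens insulin and IGF receptor signalling, was at 26.1, 36.0 and 31.1 CPM with shBrca2-CM. It was at 24.7, 22.3 and 16.4 CPM with shControl-CM and at 49.2 and 66.2 CPM in control medium. The groups did not overlap, though the nearest values of the conditioned media, 24.7 and 26.1 CPM, lay close together. The log2 fold change of 0.58 (SE 0.27) between them missed the thresholds, and in libraries thinned to the smallest total it was 0.21. Against control medium it was -1.45 (SE 0.26) with shControl-CM and -0.88 (SE 0.21) with shBrca2-CM. Cdkn1c, an inhibitor of cyclin-dependent kinases, was at 8.75 and 8.57 CPM in control medium. It had 3, 1 and 3 counts with shBrca2-CM (1.24 to 4.35 CPM) and 3, 2 and 6 with shControl-CM (1.90 to 4.10 CPM), and the conditioned media overlapped. Its ratio of summed counts between them was 0.989 (95% exact interval 0.325 to 2.79). A difference within that interval cannot be told from none at these counts, and the interval leaves out the spread between domes. Counts per library size were 3.21 times higher in control medium than with shControl-CM (1.71 to 6.66) and 3.25 times higher than with shBrca2-CM (1.51 to 8.31).

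Plagl1, a zinc finger factor held to regulate other imprinted genes, had 0, 3 and 2 counts with shBrca2-CM and 5, 1 and 0 with shControl-CM, and 50 and 38 in control medium (8.75 and 8.14 CPM). The conditioned media overlapped, with a ratio of 1.29 (95% exact interval 0.313 to 5.09). Control medium was 5.75 times above shControl-CM (2.54 to 16.1) and 4.45 times above shBrca2-CM (1.83 to 14.0) in counts per library size. Cdkn1c and Plagl1 missed the thresholds with shControl-CM against control medium when either control library was left out, and Plagl1 also with shBrca2-CM. Igf2r, the receptor that binds IGF2 and carries it to the lysosome, differed least. It was at 131, 136 and 168 CPM with shBrca2-CM, 130, 164 and 154 CPM with shControl-CM and 179 and 174 CPM in control medium. Its log2 fold change was -0.01 (SE 0.15) between the conditioned media, -0.25 (SE 0.16) with shControl-CM and -0.27 (SE 0.15) with shBrca2-CM against control medium. It met the thresholds in none of the 3 comparisons, by edgeR or by DESeq2, although both conditioned media lay below control medium without overlap. Airn overlaps Igf2r, with the same limit on strand.

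**Figure D2:**
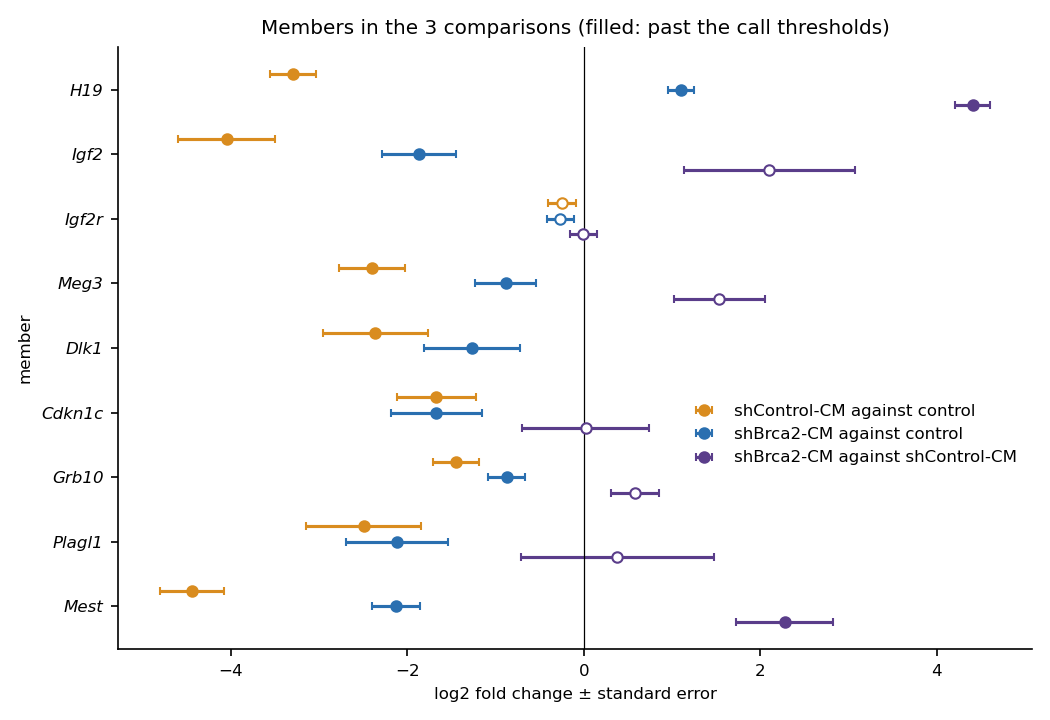
Log2 fold changes with standard errors (x axis) of the 9 members (y axis) in the 3 comparisons; filled points met the thresholds and Dlk1 is not drawn between the conditioned media, where it had at most 3 counts in every library. H19 has points on both sides of 0 against control medium (-3.29 and 1.10), and Igf2r stays within 0.27 of 0.

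Over the 9 members, 2 were called higher with shBrca2-CM than with shControl-CM (H19 and Mest) and 0 lower, where 1.58% of all 11035 genes tested were called higher. With shControl-CM against control medium 8 members were called lower, all but Igf2r, where 18.9% of 12086 genes were. With shBrca2-CM against control medium 7 were called lower and 1 higher (H19), where 19.2% and 18.6% of 12049 genes were. The members were chosen with these comparisons known, and the 2 comparisons against control medium share its libraries, so nothing is read from these counts. Groups did not overlap for 4 members between the conditioned media, all higher with shBrca2-CM, where 9.16% of all genes were so placed and 10.4% the other way (19.6% in all). With shControl-CM all 9 members lay below control medium without overlap, where 33.2% of genes did and 26.7% lay above (59.9% in all). With shBrca2-CM 8 lay below and 1 above, where 31.4% and 26.1% of genes did (57.5% in all). The median log2 fold change of the members was 1.07, -2.40 and -1.27 in the 3 comparisons, where that of all genes was 0.03, -0.10 and -0.05. Without members at 3 counts or fewer in every library of a group, it was 1.54 over 5 members, -2.40 over 7 and -0.88 over 6. Some low members turned on a single library with shControl-CM against control medium: without replicate 1 of shControl-CM, Igf2 went from -4.05 to -5.26 and Plagl1 from -2.50 to -4.27, and without its replicate 2 Dlk1 went from -2.36 to -3.25. Plagl1 was at -1.86 without replicate 3 of shControl-CM, and with shBrca2-CM it went from -2.12 to -2.89 without replicate 2 of that medium.

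The libraries differed in depth and in other genes along with the members. The shBrca2-CM libraries held 655996 to 1095534 counts in all, those of shControl-CM 1093609 to 1624392 and those of control medium 5476988 and 4623846, so 3 counts stand for 2.66 to 4.35, 1.90 to 2.91 and 0.525 to 0.643 CPM, respectively. With all libraries thinned to 655996 counts, 4 members met the thresholds for each conditioned medium against control medium (H19, Igf2, Grb10 and Mest). Over all genes 2852 did with shControl-CM and 3318 with shBrca2-CM. Between the conditioned media H19 alone of the members did, where 319 genes did in all. In these libraries H19 had log2 fold changes of 4.48 between the conditioned media, and -3.31 with shControl-CM and 1.17 with shBrca2-CM against control medium. The calls of Meg3, Dlk1, Cdkn1c and Plagl1 were lost there at log2 fold changes of -3.13, -2.85, -2.65 and -2.34 with shControl-CM and -0.57, -2.06, -1.84 and -2.06 with shBrca2-CM. With all counts these were -2.40, -2.36, -1.67 and -2.50, and -0.89, -1.27, -1.67 and -2.12, smaller in size than in the thinned libraries for 5 of the 8 and larger for Plagl1 with both media and for Meg3 with shBrca2-CM. The summed level of 10 fibroblast markers, all in the table, was 2870 to 3700 CPM with shBrca2-CM, 3070 to 3770 CPM with shControl-CM and 7150 to 8690 CPM in control medium. The markers did not move together. Against control medium 3 of the 10 were called higher and 5 lower with each conditioned medium (80%, where 37.1% of all genes were called with shControl-CM and 37.8% with shBrca2-CM). Between the conditioned media 3 of the 10 were called (30%, where 3.13% of all genes were). Pdgfra was higher with shBrca2-CM (log2 fold change 0.85, SE 0.20, edgeR adjusted p = 0.0519), and Pdpn (-1.07, SE 0.19, adjusted p = 0.0118) and Lum (-1.59, SE 0.42, adjusted p = 0.0849) were lower. Thy1 was at 578 to 757, 600 to 1010 and 201 to 262 CPM with shBrca2-CM, shControl-CM and control medium, Pdpn at 99.2 to 122, 177 to 309 and 25.4 to 30.0 CPM, and Vim at 436 to 747, 245 to 458 and 3420 to 4100 CPM. Of 4 stellate cell markers Gfap is not in the table, and the other 3 summed to 430 to 499, 235 to 368 and 344 to 414 CPM. Acta2, the smooth muscle actin of activated stellate cells, was at 0.683 to 4.35 CPM with the conditioned media and at 29.7 and 22.9 CPM in control medium. Of 10 epithelial markers 3 are in the table, Epcam and Cdh1 not among them, and summed to 59.5 to 94.0, 57.1 to 71.0 and 36.8 to 42.0 CPM. Krt19 was at 5.80, 16.1 and 13.3 CPM with shBrca2-CM, 2.54, 3.87 and 2.05 CPM with shControl-CM and 24.5 and 25.3 CPM in control medium, with log2 fold changes of 2.12 (SE 0.52, edgeR adjusted p = 0.0632) between the conditioned media and -3.18 (SE 0.36) and -1.03 (SE 0.29) against control medium. Krt18 and Muc1, the others, were called higher with both conditioned media than with control medium. Immune and endothelial markers, 3 of 6 in the table without Ptprc and Pecam1, summed to 95.5 to 147, 124 to 255 and 40.3 to 59.5 CPM. The part of these markers in the members' levels was not tested, and that of depth was examined only by the thinned fits above. In bulk RNA, fewer cells expressing a gene and less RNA per cell cannot be told apart.

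The genes around H19 were examined next, because genes of an imprinted domain can share enhancers. Lsp1, an F-actin binding protein gene 80.7 kb before H19 (chromosome 7, 142458223 to 142494868), was at 59.5, 74.4 and 79.9 CPM with shBrca2-CM. It was at 17.1, 20.3 and 24.6 CPM with shControl-CM and at 44.3 and 55.7 CPM in control medium. The 3 groups did not overlap and stood in the order seen for H19. Lsp1 was higher with shBrca2-CM than with shControl-CM, with a log2 fold change of 1.82 (SE 0.22, edgeR adjusted p = 0.000798), and it was called under all alternative settings. It fell with shControl-CM against control medium (log2 fold change -1.28, SE 0.24, adjusted p = 0.0036). With shBrca2-CM it was above control medium by 0.54 (SE 0.18, adjusted p = 0.0143), a call lost without shBrca2-CM replicate 3 (adjusted p = 0.122) and without control replicate 1 (adjusted p = 0.137).

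Genes nearer to H19 than Lsp1 gave no such call. Mrpl23, a mitochondrial ribosomal protein gene 34.8 kb from H19, was at 2.90, 3.72 and 0.887 CPM with shBrca2-CM and 6.34, 3.87 and 6.15 CPM with shControl-CM. Its log2 fold change of -1.20 (SE 0.63, adjusted p = 0.456) between the conditioned media had the sign opposite to H19, from at most 3 counts in each shBrca2-CM library (2.47 times fewer per library size, 95% exact interval 0.977 to 7.41). Tnnt3, a troponin gene 59.3 kb from H19, had at most 3 counts in every library of the conditioned media. On the far side of Igf2, R74862 had at most 3 counts with shBrca2-CM and was not called (adjusted p = 0.867). Within 1000 kb of H19, a window set after the values were seen, 18 genes are in the table and 17 were tested between the conditioned media. H19, which was chosen for this difference, and Lsp1 were called, where 3.13% of all genes were. Of the nearest genes to all members, 36 were tested between the conditioned media, and Upp1, a uridine phosphorylase gene 2790 kb from Grb10, was called besides Lsp1 (5.56%, where 3.13% of all genes were called). It was at 4.35, 6.20 and 2.66 CPM with shBrca2-CM, 17.8, 24.2 and 32.8 CPM with shControl-CM and 12.4 and 15.2 CPM in control medium. The log2 fold change of Upp1 was -2.50 (SE 0.43, adjusted p = 0.00844), opposite in sign to that of Grb10.

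**Figure D3:**
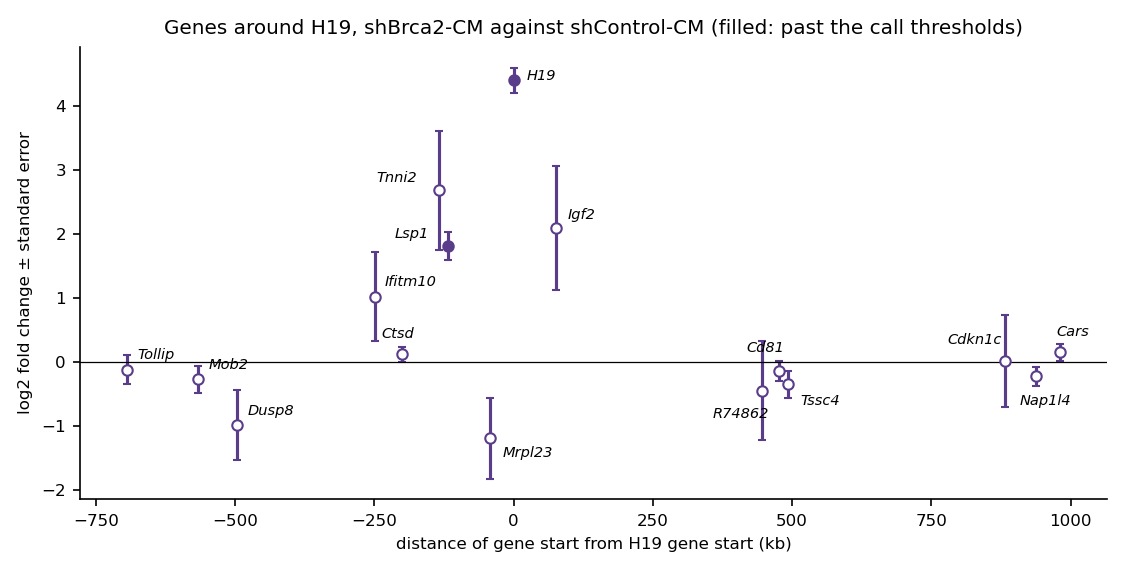
Log2 fold changes with standard errors between shBrca2-CM and shControl-CM (y axis) of the tested genes within 1000 kb of H19, against the distance of their start from that of H19 (x axis, kb); filled points met the thresholds, and Tnnt3, with at most 3 counts in every library of both groups, is not drawn. H19 (4.41) and Lsp1 (1.82) are filled, and genes between and beyond them are not.

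The genes whose levels were most like those of H19 over the 8 libraries were named by the Pearson correlation of log2 CPM, over 7914 genes with a mean of at least 10 CPM. Lsp1 came first (r = 0.988), followed by Nr2f1 (0.978), Synpo (0.971), Cplx2 (0.957) and Hdac7 (0.956). The libraries fall into 3 groups that also differ in depth, so these values mainly describe the order of the groups. Nr2f1, an orphan nuclear receptor, was at 303, 303 and 252 CPM with shBrca2-CM, 86.9, 85.2 and 91.5 CPM with shControl-CM and 187 and 184 CPM in control medium. Between the conditioned media its log2 fold change was 1.72 (SE 0.14). It was 1.55 (SE 0.24) for Cplx2, a complexin of vesicle release, 0.90 (SE 0.17) for Synpo, an actin-associated protein, and 0.66 (SE 0.12) for Hdac7, a histone deacetylase. These genes were chosen for their likeness to H19 in the same libraries, so their differences are a description and carry no p-value. The order of H19, with shBrca2-CM above control medium above shControl-CM and no overlap between groups, was seen in 60 of 11000 genes (0.545%), and the reverse order in 36 (0.327%). Of the other members none had it.

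**Figure D4:**
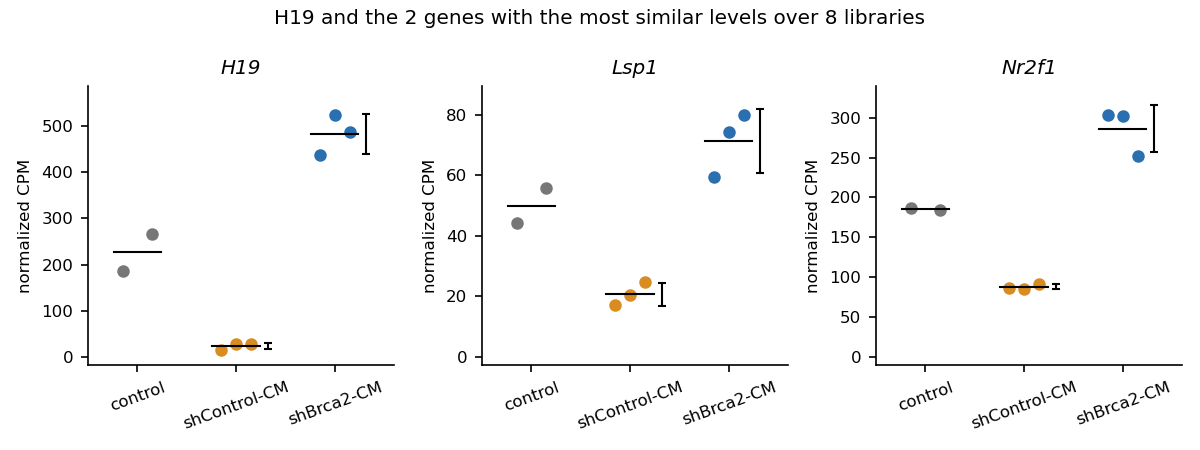
Normalized CPM (y axis) of H19, Lsp1 and Nr2f1 in each library of the 3 groups; points are libraries, lines are means and bars are the SD where n = 3. In each gene the shBrca2-CM points lie above control medium and the shControl-CM points below it.

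Other imprinted genes, listed from general knowledge of the mouse, were called between the conditioned media at near the share of all genes. Of 68 listed, 36 are in the table and 29 were tested, of which 1 was called (3.45%), where 3.13% of all genes were. The one called, Dcn, encodes decorin, a collagen-binding proteoglycan imprinted in the placenta. It was at 1226, 907 and 1127 CPM with shBrca2-CM, 2234, 2146 and 1933 CPM with shControl-CM and 106 and 79.7 CPM in control medium. Dcn was lower with shBrca2-CM (log2 fold change -0.93, SE 0.14, edgeR adjusted p = 0.00314), and against control medium it rose by 4.50 (SE 0.21, adjusted p = 8.34e-07) with shControl-CM and by 3.56 (SE 0.17, adjusted p = 5.7e-27) with shBrca2-CM. Its direction was thus opposite to that of H19 between the conditioned media. The median of the 29 genes was -0.10, where that of all genes was 0.03.

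Against control medium, the other imprinted genes moved in both directions, though whether each is imprinted in PSCs was not measured. With shControl-CM 7 of 36 rose and 6 fell, a share called of 36.1% where 37.1% of all genes were called. With shBrca2-CM 7 rose and 10 fell, 47.2% where 37.8% of all genes were. Gnas, which encodes the stimulatory G protein subunit, was at 804, 938 and 808 CPM with shBrca2-CM, 1063, 881 and 640 CPM with shControl-CM and 1957 and 1881 CPM in control medium. Its log2 fold changes were -1.17 (SE 0.13, adjusted p = 3.51e-11) and -1.16 (SE 0.21, adjusted p = 0.00253) for shBrca2-CM and shControl-CM, and it did not separate the conditioned media (log2 fold change 0.00, SE 0.17). Mirg, a noncoding RNA of the Dlk1 and Meg3 domain, was at 2.48 to 2.90 CPM with shBrca2-CM, 1.90 to 2.05 CPM with shControl-CM and at 16.4 and 8.78 CPM in control medium. It had 2 or 3 counts in each conditioned medium library. Its counts per library size were 6.62 times lower with shControl-CM (95% exact interval 3.27 to 15.6, edgeR adjusted p = 0.00307) and 4.87 times lower with shBrca2-CM (2.30 to 12.3, adjusted p = 0.000178).

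Peg13, a noncoding RNA, was at 8.71, 9.92 and 5.32 CPM with shBrca2-CM, 5.71, 3.87 and 4.10 CPM with shControl-CM and 17.0 and 14.4 CPM in control medium. It fell with shControl-CM (log2 fold change -1.75, SE 0.35, adjusted p = 0.0044) and with shBrca2-CM (-1.03, SE 0.35, adjusted p = 0.0163), the latter call lost without shBrca2-CM replicate 3 (-0.74, adjusted p = 0.175). Tfpi2, a protease inhibitor, fell with shControl-CM (-1.64, SE 0.52, adjusted p = 0.0351), a call lost without control replicate 1 (-1.73, adjusted p = 0.17) or replicate 2 (-1.51, adjusted p = 0.215). With shBrca2-CM Tfpi2 was at -1.86 (SE 0.57, adjusted p = 0.0063), at -2.89 without shBrca2-CM replicate 2 and not called without replicate 3 (-1.07, adjusted p = 0.165). Inpp5f, an inositol phosphatase, was at -0.99 (SE 0.39, adjusted p = 0.0731) and -0.89 (SE 0.37, adjusted p = 0.0523), and its calls were lost in several fits that left out a library, among them those without control replicate 1 (adjusted p = 0.284) and without shBrca2-CM replicate 1 (adjusted p = 0.183). Without shControl-CM replicate 3 the former was at -0.66 (adjusted p = 0.193).

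Of the imprinted genes that rose besides Dcn, Trappc9, of vesicle transport, was at 81.9 to 91.4 CPM with shBrca2-CM, 62.1 to 93.0 CPM with shControl-CM and 41.6 and 50.3 CPM in control medium. Its log2 fold change was 0.95 (SE 0.18, adjusted p = 1.12e-05) with shBrca2-CM and 0.77 (SE 0.21, adjusted p = 0.0208) with shControl-CM, the latter lost without control replicate 1 (adjusted p = 0.189). Pon2, a paraoxonase, rose by 1.01 (SE 0.22, adjusted p = 0.00643) with shControl-CM and by 0.70 (SE 0.19, adjusted p = 0.00251) with shBrca2-CM. Atp10a, a lipid flippase, was 0.63 (SE 0.20, adjusted p = 0.034) and 0.76 (SE 0.19, adjusted p = 0.000764) above control medium. Gab1, a docking protein of receptor signalling, was 0.70 (SE 0.27, adjusted p = 0.0721) and 0.70 (SE 0.24, adjusted p = 0.0136) above it. With shControl-CM these calls were lost without control replicate 1, at adjusted p = 0.224 for Atp10a and 0.39 for Gab1. They were also lost without control replicate 2, at 0.107 and 0.152, and Atp10a without shControl-CM replicate 2 (0.105) and Gab1 without shControl-CM replicate 3 (0.119). With shBrca2-CM the call of Gab1 was lost without control replicate 1 (adjusted p = 0.146).

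**Figure D5:**
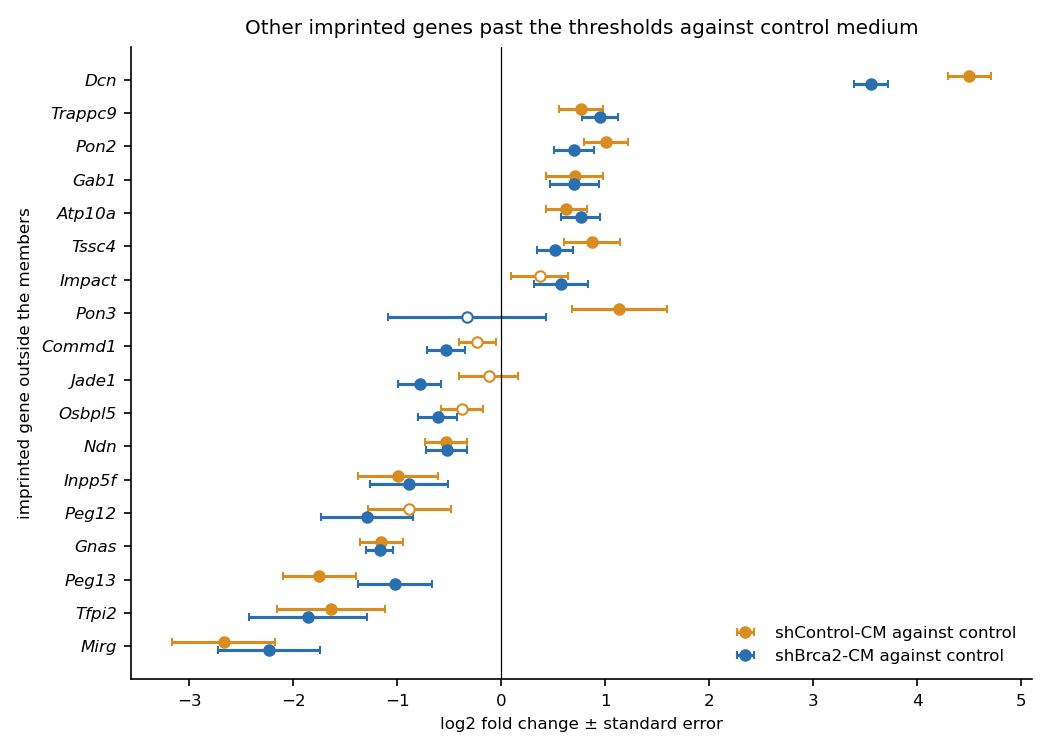
Log2 fold changes against control medium with standard errors (x axis) of the imprinted genes outside the members that met the thresholds with either conditioned medium (y axis); filled points met them. Points lie on both sides of 0, from Mirg, the lowest, to Dcn (4.50 and 3.56), and both comparisons use the same control libraries.

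Genes that set or keep imprints were examined for their RNA, since H19 depends on methylation and on CTCF. Of 19 listed 18 are in the table, and 0 of 16 tested were called between the conditioned media by edgeR or by DESeq2, with 2 at an unadjusted p under 0.05. Over all 11035 genes edgeR called 3.13%, and 1477 were at such a p. Ctcf was at a log2 fold change of 0.03 (SE 0.24, edgeR adjusted p = 0.98). Dnmt1, a DNA methyltransferase, was at 234 to 256 CPM with shBrca2-CM and 269 to 376 CPM with shControl-CM (-0.35, SE 0.14, adjusted p = 0.288). Eed, a subunit of the Polycomb complex that methylates histones, was at 10.2, 17.4 and 19.5 CPM with shBrca2-CM, 10.1, 4.84 and 6.83 CPM with shControl-CM and 26.2 and 22.5 CPM in control medium. Its log2 fold change of 1.11 (SE 0.40, adjusted p = 0.223) between the conditioned media missed the threshold, and passed it without shControl-CM replicate 1 (adjusted p = 0.0723). With shControl-CM against control medium 1 rose and 2 fell of 17 (17.6%), where 37.1% of all genes were called. Eed fell by 1.70 (SE 0.33, adjusted p = 0.0039). Hells, a chromatin remodeller needed for DNA methylation, was at -2.64 (SE 0.61, adjusted p = 0.00896), lost without control replicate 1 (adjusted p = 0.123). It had 10, 2 and 0 counts with shControl-CM, and went to -4.45 without shControl-CM replicate 1. Smchd1, a chromatin protein of silenced genes, was at 0.82 (SE 0.33, adjusted p = 0.0828), lost without shControl-CM replicate 2 (adjusted p = 0.195), control replicate 1 (1.26, adjusted p = 0.127) or control replicate 2 (0.52, adjusted p = 0.432), and of the opposite sign in thinned libraries.

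With shBrca2-CM against control medium 2 of the 17 rose and 3 fell (29.4%), where 37.8% of all genes were called. DESeq2's likelihood ratio test called 2 of the 17. Zfp445 (adjusted p = 0.101), Eed (0.22) and Suz12 (0.174) were not called by that test, nor in the joint fit. Smchd1 rose by 1.32 (SE 0.32, adjusted p = 0.000636) and Hells fell by 1.33 (SE 0.35, adjusted p = 0.00144). In libraries thinned to the smallest total both calls were lost, with Smchd1 at 0.24 (adjusted p = 0.742) and Hells at -0.65 (adjusted p = 0.343). Zfp445, a zinc finger protein that protects imprints, was at 1.03 (SE 0.35, adjusted p = 0.0155), a call lost without shBrca2-CM replicate 3 (adjusted p = 0.129) or control replicate 2 (adjusted p = 0.135), while without control replicate 1 it was at 1.57. Eed was at -0.58 (SE 0.27, adjusted p = 0.0836) and its call was lost without shBrca2-CM replicate 1 (adjusted p = 0.319), shBrca2-CM replicate 2 (0.115) or control replicate 1 (0.243). Suz12, its partner in the complex, was at -0.53 (SE 0.23, adjusted p = 0.0571), lost without shBrca2-CM replicate 1 (adjusted p = 0.224), shBrca2-CM replicate 3 (0.126) or control replicate 1 (0.199).

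Known binding partners, processing factors and regulators of H19 gave no call between the conditioned media with all libraries. Of 14 listed 12 are in the table, all were tested, and 0 were called by edgeR or DESeq2, with 1 at an unadjusted p under 0.05. Of all 11035 genes edgeR called 3.13%, and 1477 had such a p, so the 0 is not read as a trait of these genes. Without shControl-CM replicate 1, Igf2bp2 (0.50, adjusted p = 0.0726) and Hmga2 (0.56, adjusted p = 0.0968) were called higher with shBrca2-CM. Against control medium 7 of the 12 rose and 2 fell with shControl-CM (75.0%, where 37.1% of all genes were called), and 6 rose and 1 fell with shBrca2-CM (58.3%, where 37.8% were). Dgcr8, the RNA-binding part of the complex that cuts miRNA precursors such as that of miR-675, was at 79.8, 71.9 and 96.7 CPM with shBrca2-CM, 65.3, 39.7 and 78.5 CPM with shControl-CM and 25.0 and 22.3 CPM in control medium. It rose by 1.82 (SE 0.19, adjusted p = 7.45e-12) with shBrca2-CM and by 1.38 (SE 0.28, adjusted p = 0.0044) with shControl-CM. Hmga2, a chromatin architectural factor, rose by 1.73 (SE 0.19, adjusted p = 1.53e-11) and 1.35 (SE 0.23, adjusted p = 0.00194), respectively. E2f1, a cell cycle transcription factor, rose by 0.99 (SE 0.16, adjusted p = 8.33e-07) and 1.27 (SE 0.17, adjusted p = 0.000446).

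Igf2bp2, which binds the mRNA of Igf2, rose by 1.22 (SE 0.15, adjusted p = 1.14e-09) with shBrca2-CM and was 0.80 (SE 0.19, adjusted p = 0.00946) above control medium with shControl-CM, a call lost without control replicate 1 (adjusted p = 0.107). Between the conditioned media Igf2bp2 was at 0.43 (SE 0.15, adjusted p = 0.214). Its relative Igf2bp3 was at -1.27 (SE 0.43, adjusted p = 0.0437) with shControl-CM, lost without either control library (adjusted p = 0.238 and 0.217) or shControl-CM replicate 2 (0.106) and at -0.82 without its replicate 3, and at -0.59 (SE 0.29, adjusted p = 0.106) with shBrca2-CM. Khsrp, an RNA-binding protein that associates with H19, rose with shControl-CM (log2 fold change 0.78, SE 0.17, adjusted p = 0.00621) and was at 0.48 (SE 0.18, adjusted p = 0.0237) with shBrca2-CM, under the fold threshold. The latter passed it without shBrca2-CM replicate 1 (0.67, adjusted p = 0.00421), with a filter of 50 counts (0.52, adjusted p = 0.0171) and in thinned libraries (0.55, adjusted p = 0.0827).

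Genes of IGF and insulin signalling (Igf1, Igf1r, Insr, Irs1 and Irs2) were listed as the pathway of Igf2. Of these 5, all in the table, 3 were tested between the conditioned media and 0 were called by edgeR or DESeq2, with 0 at an unadjusted p under 0.05. Among all 11035 genes 3.13% were called by edgeR and 1477 had such a p, so 0 of 3 says little. Without shControl-CM replicate 1, Insr was called (log2 fold change 2.36 in place of 0.91, adjusted p = 0.0502). Against control medium 1 was called with shControl-CM (20%, where 37.1% of all genes were) and 2 with shBrca2-CM (40%, where 37.8% were). Igf1r, the receptor that carries the IGF2 signal, was at 11.6, 13.6 and 22.2 CPM with shBrca2-CM, 17.1, 8.72 and 10.9 CPM with shControl-CM and 17.8 and 12.2 CPM in control medium, and the groups overlapped. Irs2, an adaptor of these receptors, was at 27.5 to 33.5, 29.4 to 38.7 and 40.2 to 40.5 CPM and was not called. Igf1, the sister ligand, had 0 counts in all conditioned medium libraries but 1, which had 1 count, and 20 in each control library. Insr, the insulin receptor, was at 8.71, 7.44 and 15.1 CPM with shBrca2-CM, 12.05, 3.87 and 0.683 CPM with shControl-CM and 3.15 and 1.29 CPM in control medium. It rose by 2.24 (SE 0.47, adjusted p = 9.51e-05) with shBrca2-CM (3.03 without control replicate 1) and was at 1.33 (SE 0.79, adjusted p = 0.22) with shControl-CM. The latter rests on shControl-CM replicate 1 (19 of 24 counts) and was at -0.17 without it, while it passed the threshold without replicate 3 (1.91, adjusted p = 0.0102). Irs1, an adaptor of the insulin and IGF1 receptors, had 0 to 3 counts in each conditioned medium library and 48 and 38 in control medium (8.40 and 8.14 CPM). It was called lower with shControl-CM (6.75 times per library size, 95% exact interval 2.78 to 21.3, edgeR adjusted p = 0.00914) and with shBrca2-CM (5.43 times, 2.05 to 20.4, adjusted p = 0.00104). The first call was lost without control replicate 1 (adjusted p = 0.101), and the second without either control library, where the normalized count no longer averaged above 5 (adjusted p = 0.00211 and 0.00137). The log2 fold change of Irs1 ran from -3.30 to -2.08 with shControl-CM when 1 library was left out, lowest without shControl-CM replicate 1 and highest without its replicate 3, and with shBrca2-CM it went from -2.40 to -3.55 without shBrca2-CM replicate 3.

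The promoters of 3 members are shown because their levels differed in different ways: Mest and Meg3 were without overlap between the conditioned media, and Igf2r overlapped in them. Each is the RefSeq window of 300 bases, from 250 before a gene start to 50 after it, and capitals mark the motifs searched. Both strands were searched, and shares are of all 32851 promoters of this length. The TATA box was searched as TATAAA (13.6% of promoters hold it). The E-box was searched as CACGTG (7.15%), the GC box as GGGCGG (35.7%) and a GC-rich site as GGGGCCCC (1.08%).
Mest, chr6:30737800-30738099, plus strand: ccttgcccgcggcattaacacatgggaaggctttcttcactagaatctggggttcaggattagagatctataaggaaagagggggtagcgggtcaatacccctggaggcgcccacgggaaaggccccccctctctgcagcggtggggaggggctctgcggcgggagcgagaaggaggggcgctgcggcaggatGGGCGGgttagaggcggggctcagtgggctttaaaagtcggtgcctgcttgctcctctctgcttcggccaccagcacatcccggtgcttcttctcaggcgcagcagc
Meg3, chr12:109540746-109541045, plus strand: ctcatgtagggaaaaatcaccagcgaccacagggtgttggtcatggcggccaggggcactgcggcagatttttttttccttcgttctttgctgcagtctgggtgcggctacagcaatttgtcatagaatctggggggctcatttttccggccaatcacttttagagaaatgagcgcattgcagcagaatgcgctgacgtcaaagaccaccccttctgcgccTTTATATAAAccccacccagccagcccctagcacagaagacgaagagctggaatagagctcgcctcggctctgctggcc
Igf2r, chr17:12769657-12769956, minus strand: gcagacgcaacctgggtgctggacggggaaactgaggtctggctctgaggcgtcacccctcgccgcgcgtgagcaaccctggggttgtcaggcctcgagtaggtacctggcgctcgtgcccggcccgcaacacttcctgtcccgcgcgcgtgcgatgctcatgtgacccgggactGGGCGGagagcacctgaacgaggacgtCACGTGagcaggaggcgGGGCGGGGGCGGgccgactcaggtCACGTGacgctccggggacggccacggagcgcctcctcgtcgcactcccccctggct
Of 15 promoters of 8 members, 8 held GGGCGG (5 members), 2 held CACGTG (Plagl1 and Igf2r), 1 held TATAAA (Meg3) and 1 held GGGGCCCC (Peg3). A match is a description of the letters and not of a bound factor.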

How the data were processed

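RNA of immortalized mouse PSCs was measured in 8 libraries by MARS-seq, which tags the 3′ ends of mRNA, on a NextSeq 500. The authors deposited raw read counts per gene for 12160 genes, without normalization and with 1 column per library; 1 further column matched no sample and was not used. The submitters' processing notes name bcl2fastq, cutadapt, STAR 2.4.2a, HTSeq, DESeq2 and mm10, and strand and molecular identifiers are not given in the sources used here.

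Samples were grouped by their titles and recorded treatment. Counts were analysed in R 4.3.3 with edgeR 4.0.16: each pair of groups was fitted alone (TMM, genes with at least 10 counts, quasi-likelihood test, Benjamini-Hochberg adjustment over all genes tested). Genes were called where the adjusted p was below 0.1, the log2 fold change exceeded 0.5 in size and the normalized count averaged above 5. The SE of a log2 fold change is its size over the square root of the test's F. p-values measure the spread between domes of a single line. Ratios of summed counts have 95% exact (Clopper-Pearson) intervals. The scripts were tested on simulated data.

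The members and all gene lists were chosen with earlier results of these data known, and the window of 1000 kb around H19 was added after the values were seen, so members carry no p-values. Named besides the members were other imprinted genes called between the conditioned media, the 5 with the largest mean change in each direction among those called against control medium with both media, neighbouring genes called between the conditioned media and those on either side of H19, up to 6 genes of each further list, and the 5 genes most like H19. Tnnt3, Ctcf, Dnmt1, Krt19 and the other markers given singly, Igf1, Igf1r and Irs2 were named after their values were seen. Neighbours were the 3 nearest genes in the table on each side of a member. Coordinates and sequences are RefSeq's for GRCm38.p6, the same build as mm10; 12111 of 12160 symbols matched. Alternatives were DESeq2 1.42.0, other normalizations, filters and thresholds, a joint fit, a replicate block, thinned libraries and each library left out.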

Additional observations from a re-analysis of the deposited data

How the results depend on the processing

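H19 was called in each comparison under all alternatives, at log2 fold changes of 4.13 to 4.55 between the conditioned media, -3.51 to -3.00 with shControl-CM and 0.86 to 1.39 with shBrca2-CM against control medium, and no called fold change of a member reversed. Between the conditioned media, members that were not called changed sign when a library was left out: Plagl1 (0.38) ran from -0.24 to 0.83, Cdkn1c (0.02) from -0.35 to 0.46 and Igf2r (-0.01) from -0.12 to 0.06. The counts of calls over all genes depended on the libraries left out. Leaving out 1 library gave 128 to 976 genes between the conditioned media (main count 345), lowest without shBrca2-CM replicate 2 and highest without shControl-CM replicate 1. It gave 175, 160 and 169 without shBrca2-CM replicate 1, shBrca2-CM replicate 3 and shControl-CM replicate 2. With shControl-CM against control medium the range was 1901 to 5157 genes (4488), with 1901 without control replicate 1 and 2269 without control replicate 2, and with shBrca2-CM it was 3903 to 4510 (4555). For other imprinted genes these ranges were 1 to 2, 5 to 14 and 13 to 15, with 2 without shControl-CM replicate 1, and 5 and 7 without control replicates 1 and 2. At an adjusted p under 0.05 and a log2 fold change over 1, 130, 2375 and 2185 genes were called and 0, 6 and 6 other imprinted genes. DESeq2 called 8 other imprinted genes with shControl-CM by either of its tests. In libraries thinned to the smallest total, 2852 genes and 8 other imprinted genes were called with shControl-CM, 7 other imprinted genes with shBrca2-CM, and Smchd1 turned to -0.33 with shControl-CM; fewer control counts entered these fits. With total counts as the scale, the median over all genes went from 0.03 to 0.14 between the conditioned media and from -0.10 to -0.21 with shControl-CM, and the higher and lower calls to 250 and 120 (main 174 and 171) and to 1798 and 2671 (2200 and 2288). Of the named genes outside the members, 1149 values kept their direction and side of the threshold over the alternatives, 110 lost the call, 12 gained it and 32 changed sign. These 32 belong to 10 fold changes, of which that of Smchd1 (above) was called with all libraries. Between the conditioned media, leaving out 1 library gave -0.13 to 0.16 for Gab1 (0.01), -0.19 to 0.17 for Gnas (0.0018), -1.16 to 0.56 for Tfpi2 (-0.18), -0.23 to 0.48 for Inpp5f (0.10), -0.11 to 1.18 for Suz12 (0.46) and -0.92 to 1.55e-05 for R74862 (-0.45). Against control medium it gave -0.17 to 2.12 for Insr (1.33) and -0.077 to 0.83 for Zfp445 (0.27) with shControl-CM, and -0.51 to 0.48 for Mrpl23 (-0.05) with shBrca2-CM. Mrpl23 was also at 0.026 by either DESeq2 test and at 0.53 with the replicate block. Gab1 and Gnas, in this order, were at -0.015 and -0.018 with DESeq2 size factors, -0.011 and -0.018 by either DESeq2 test, -0.00049 and -0.0068 with no filter, -0.019 and -0.019 with all 3 groups in one fit and -0.11 and -0.011 in thinned libraries.

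Same-numbered libraries of the conditioned media correlated at -0.06, 0.01 and 0.15 in their deviations from the group means. With control medium, replicates 1 and 2 correlated at 0.15 and 0.01 for shControl-CM and at 0.04 and -0.01 for shBrca2-CM. These values do not settle whether equal numbers mark a shared batch. With the number as a replicate block, 311, 4512 and 3850 genes were called.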
